A study of Mus musculus with 24 samples.

Results

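The HoxB cluster is 1 of the 4 clusters of homeobox genes in the mouse genome, and its members were taken by name from the GENCODE annotation of mm9: Hoxb13, Hoxb9, Hoxb8, Hoxb7, Hoxb6, Hoxb5, Hoxb4, Hoxb3, Hoxb2 and Hoxb1, which are 10 of 22359 protein-coding genes. Chromatin immunoprecipitation with sequencing was done in 3 types of mouse fibroblast for H3K4me3, a histone mark of promoters, and H3K27ac, a mark of active promoters and enhancers. The transcription factor Prrx1 was also mapped, in the WT cells of each type. Mouse embryonic fibroblasts (MEF, strain C57BL/6 by label, from embryos at days 10 to 13 of development) were WT, KI or SG. MMTV-CAF, the fibroblasts of mammary tumours that an MMTV-PyMT transgene drives in strain FVB/NJ, and wound-healing fibroblasts, taken from dorsal skin wounds of C57BL/6 mice at day 10, were WT or SG. WT stands for the control guide SgNS of the CRISPR/Cas9 comparisons, SG cells carried a guide against Prrx1, and KI is read here as the MEF of Prrx1 mutant mice (129S-Prrx1tm1Jfm/Mmmh), in which lacZ was placed in the homeodomain; by the study's methods that line had been crossed back to C57BL6. All cultures, controls included, had been immortalised with HPV E6/E7. Ages were given for the embryos and the wounds only.

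Hox proteins are transcription factors that give cells their position along the body and limb axes, and adult fibroblasts keep much of the Hox pattern of the site they came from. Within a cluster the genes lie on the chromosome in the order in which they are used, with the low paralogue numbers used earliest and farthest towards the head and the high numbers later and towards the tail. Silent Hox genes are typically held by Polycomb complexes, and active ones carry H3K4me3 in wide stretches. Prrx1 is itself a homeobox factor, of the paired-related class, and is a marker of mesenchymal cells, limb bud mesenchyme among them.

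The members lay on chromosome 11 from 96055630 to 96229570 (mm9), a span of 173.9 kb, and all 10 are transcribed from the + strand. Hoxb13 stood apart from the others, with 74 kb to Hoxb9, while Hoxb9 to Hoxb2 were at most 10.6 kb apart, and 10.1 kb separated Hoxb2 from Hoxb1. The annotations of Hoxb8 and Hoxb7 overlap, because the Hoxb7 start site belongs to a transcript that begins inside Hoxb8, so values at the start sites of these neighbours are shared. Besides the members the span holds the coding gene Gm53, between Hoxb13 and Hoxb9, the microRNA genes Mir196a-1 and Mir10a, and several noncoding transcripts.

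There are 17 lists, 7 of H3K4me3 regions, 7 of H3K27ac summits and 3 of Prrx1 summits, with 1 list per group. No spread between replicates exists, so differences between lists below are untested, and intervals (Wilson, 95%) cover counting error only. Read depth is not in the lists. H3K27ac lists held 29325 to 61603 summits, H3K4me3 lists 13125 to 29166 regions and Prrx1 lists 3048 to 8000 summits. MEF KI had the shortest list for both histone marks. Its median −log10 p was 11.9 for H3K27ac, against 15.2 to 21.2 in the other 6, and its median H3K4me3 fold enrichment was 3.59, against 3.58 to 6.65. Fibroblast markers had H3K4me3 at a start site for 9 to 11 of 12 genes in every library. The epithelial list had 0 to 3 of 6, the leukocyte list 0 of 4, the endothelial list 0 to 1 of 3, and the muscle and Schwann list 0 of 3. Lum was unmarked in all 7 libraries, Thy1 in MEF KI and 2 of the SG libraries (MMTV-CAF and wound-healing), and Dcn in MEF KI and both wound-healing libraries.

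The sequences below are those on which the results turn. The first set is the surroundings of the Prrx1 summits that fell in Gm53, both from wound-healing WT, on the + strand of mm9. Capitals mark TAAT, the core word of homeodomain binding, on either strand (read as ATTA on the other). The word TAATTA, which contains it, was also searched.
Prrx1 summit in an intron of Gm53, chr11:96117367-96117567: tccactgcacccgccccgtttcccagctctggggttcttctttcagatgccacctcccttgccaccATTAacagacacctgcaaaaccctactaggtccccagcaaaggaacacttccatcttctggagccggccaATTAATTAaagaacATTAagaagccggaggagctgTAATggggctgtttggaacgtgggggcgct
Prrx1 summit in an intron of Gm53, chr11:96121723-96121923: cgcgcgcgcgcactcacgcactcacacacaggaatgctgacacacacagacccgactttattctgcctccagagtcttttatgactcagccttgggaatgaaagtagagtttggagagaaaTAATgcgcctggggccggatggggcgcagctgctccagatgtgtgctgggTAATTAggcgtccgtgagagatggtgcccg

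The second set, with each CG in capitals, holds the window around the single H3K27ac summit of MEF KI in the cluster and the 250 bases upstream of Hoxb1, the unmarked member.
H3K27ac summit of MEF KI, upstream of the first Hoxb6 start site, chr11:96153230-96153430: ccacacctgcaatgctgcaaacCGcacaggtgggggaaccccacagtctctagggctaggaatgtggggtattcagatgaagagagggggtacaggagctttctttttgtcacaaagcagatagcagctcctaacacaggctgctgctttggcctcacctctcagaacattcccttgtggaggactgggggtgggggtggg
Upstream of Hoxb1, chr11:96226816-96227065: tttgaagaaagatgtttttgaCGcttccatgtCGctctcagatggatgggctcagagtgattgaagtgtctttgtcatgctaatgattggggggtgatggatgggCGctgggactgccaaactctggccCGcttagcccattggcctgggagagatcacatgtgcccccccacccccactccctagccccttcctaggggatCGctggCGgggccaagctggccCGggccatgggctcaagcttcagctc

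The MEF KI window held 1 CG, where the median over all 29325 H3K27ac summits of that list was 4 and 91.4% held at least 1. The stretch upstream of Hoxb1 held 7 CG, against a median of 9 over 22354 coding genes, of which 92.5% held at least 1. The third set is the mature microRNAs of the cluster (RefSeq, GRCm38.p6), with the seed, bases 2 to 8, in capitals. Their seeds differ from each other, and both families are known to target Hox transcripts.
mmu-miR-10a-5p: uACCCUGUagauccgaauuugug
mmu-miR-196a-5p: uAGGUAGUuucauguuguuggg

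H3K4me3 covered much more of the HoxB cluster than of the genome in 6 of the 7 libraries, and very little of it in MEF KI. Coverage of the span was 2.65% in MEF KI, whereas MEF WT had 22.2% and MEF SG 18.3%. It was 26.1% in MMTV-CAF WT, 30.7% in MMTV-CAF SG, 24.1% in wound-healing WT and 37.2% in wound-healing SG. The same lists covered 0.809% (MEF KI) to 2.01% (MMTV-CAF SG) of the genome. MEF KI stood far below the rest, at 4603 covered bases where the others had 31797 to 64637. Wound-healing SG was the highest.

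**Figure D1:**
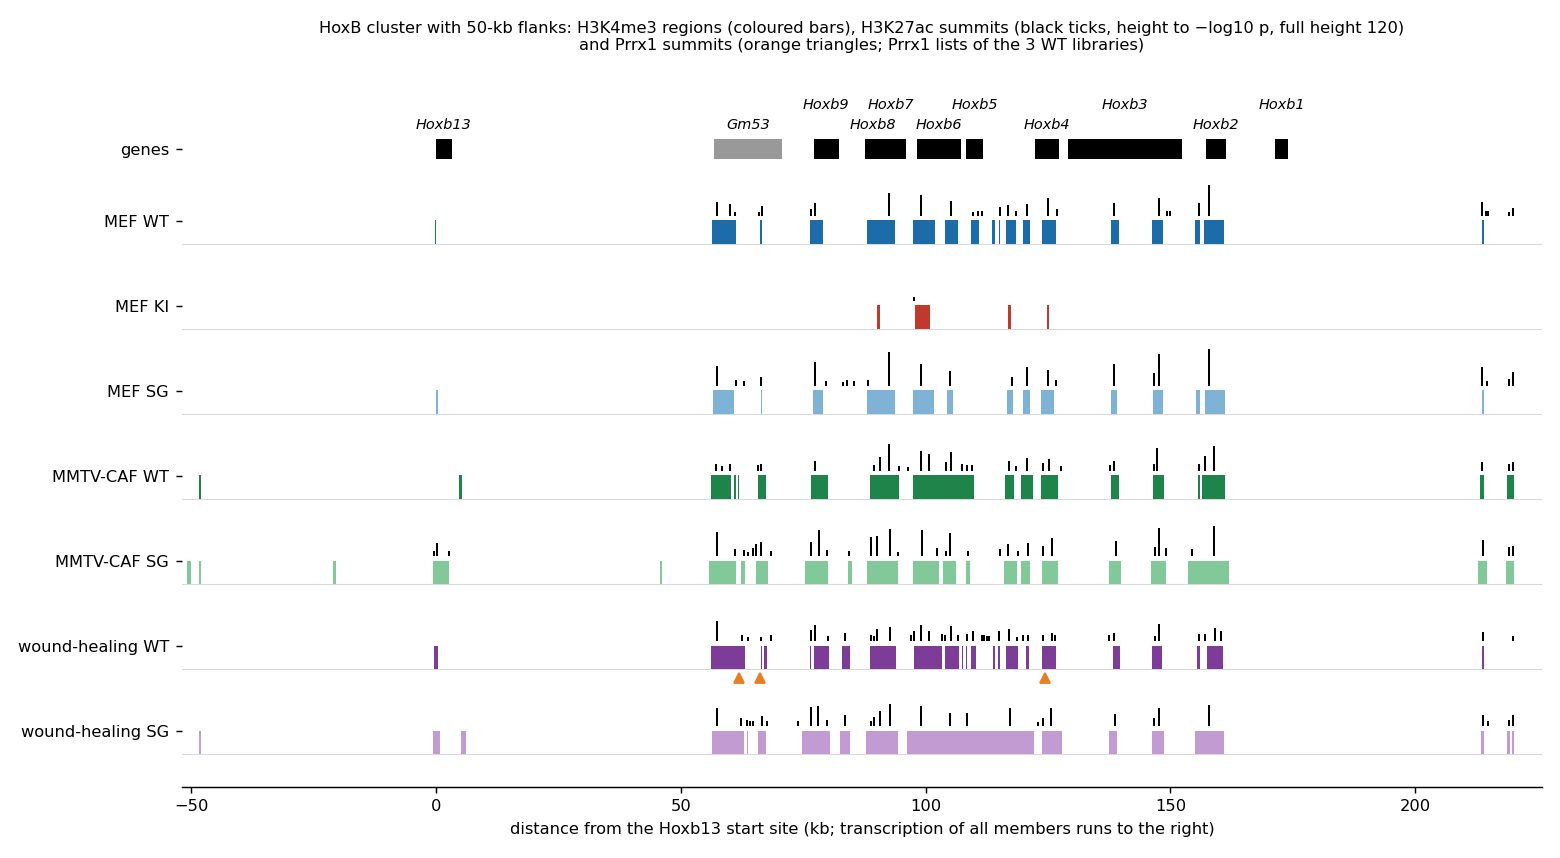
Map of the HoxB cluster with 50 kb on each side; the x axis is the distance in kb from the Hoxb13 start site, each row is 1 library, coloured bars are H3K4me3 regions, black ticks are H3K27ac summits with a height in proportion to −log10 p, orange triangles are Prrx1 summits, and black boxes are the members (grey, Gm53). In 6 libraries the main marked stretch runs from Gm53 to Hoxb2, with separate smaller marks nearer Hoxb13, Hoxb1 has none, and MEF KI has 4 regions and 1 summit.

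The borders of marking lay at nearly the same places in the 6 libraries other than MEF KI. On the Hoxb1 side, H3K4me3 ended at or just past Hoxb2, between 96216457 (wound-healing WT) and 96217682 (MMTV-CAF SG). This was 9.38 to 10.6 kb before the Hoxb1 start site, a range narrower than 2 kb. The last H3K27ac summit lay 11.2 to 13.6 kb before that start site. Marking resumed only 39 to 39.6 kb beyond the end of Hoxb1, with a region of 406 to 1756 bp between the cluster and Skap1, the next coding gene. In MEF KI the last marked base was 96180755, in Hoxb4, 46.3 kb before the Hoxb1 start site, and neither flank held H3K4me3.

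On the other side, the stretch between Hoxb13 and Gm53 was the longest unmarked piece of the cluster. It measured 56.4 kb in MEF WT, 56.2 kb in MEF SG, 50.9 kb in MMTV-CAF WT, 43.2 kb in MMTV-CAF SG, 55.8 kb in wound-healing WT and 50.2 kb in wound-healing SG. In MEF WT it ran from the first base of the cluster, since its Hoxb13 region ended upstream of the gene. Marking resumed at Gm53 rather than at Hoxb9, with a region that began 20.7 to 21.0 kb before the Hoxb9 start site in 5 libraries. In MMTV-CAF SG a region of 324 bp preceded it, at 31.4 kb. The Gm53 region was 4226 to 6904 bp wide and carried an H3K27ac summit between 96112816 and 96113024 in all 6, with a −log10 p of 14.9 to 73.7. In MEF KI nothing was marked over the first 90.0 kb, up to 96145646.

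By gene, H3K4me3 lay within 1 kb of a start site for 7 of 10 members in MEF WT, for 2 in MEF KI and for 7 in MEF SG. The counts were 8 in MMTV-CAF WT, 8 in MMTV-CAF SG, 7 in wound-healing WT and 9 in wound-healing SG. Over all coding genes the shares were 55.1%, 50% and 53.6% for WT, KI and SG of MEF, then 54.2% and 54.7% for WT and SG of MMTV-CAF, and 57.4% and 57.6% for those of the wound. The MEF KI list therefore marked about as many genes as the others while marking few members.

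H3K27ac lay within 1 kb of a start site for 1 member in MEF KI and for 4 in each of MEF WT and MEF SG. It did for 5 in MMTV-CAF WT, 7 in MMTV-CAF SG, 6 in wound-healing WT and 7 in wound-healing SG. The shares over all coding genes were 37.8% in MEF KI, 48.4% and 50.2% in MEF WT and MEF SG, and 48.5%, 50.7%, 47.3% and 49.4% in the order of the rest. Apart from MEF KI these counts are near the background.

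**Figure D2:**
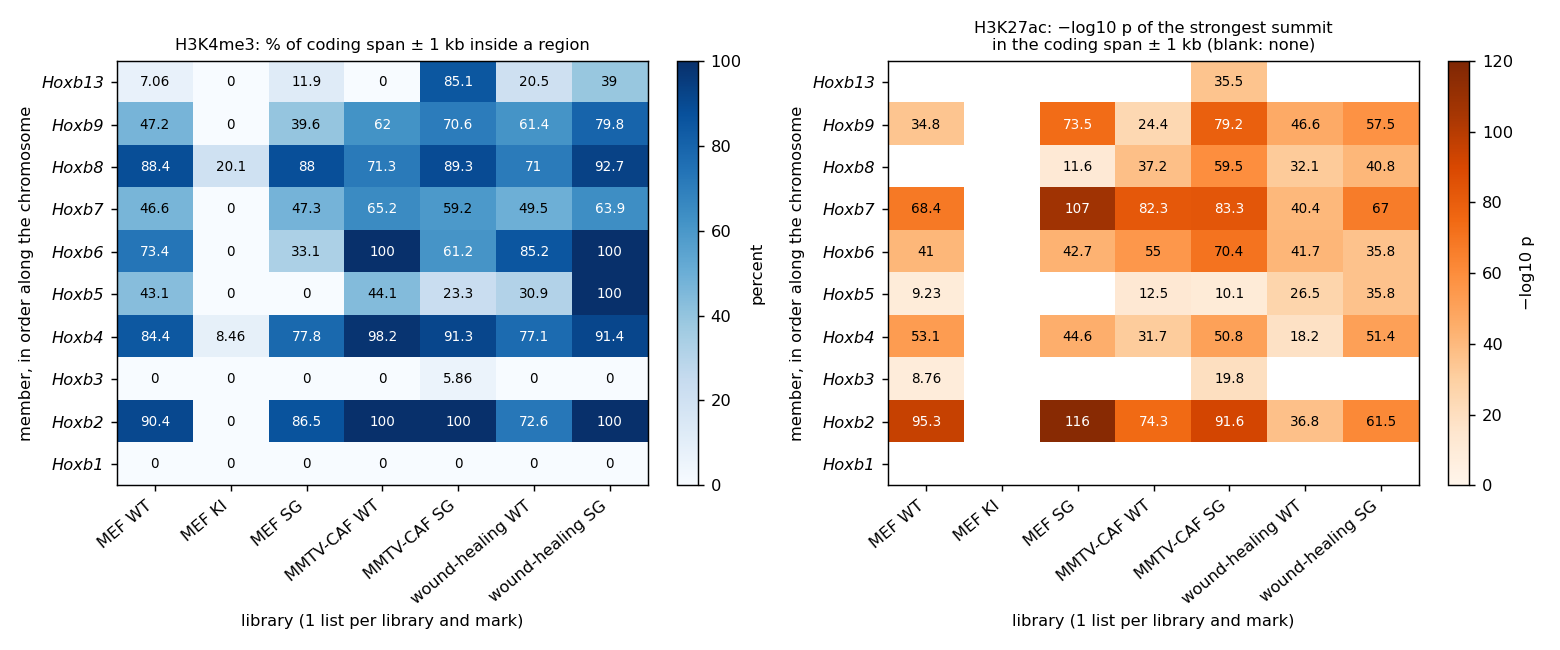
Values of each member (rows, in order along the chromosome) in each library (columns). Left, percent of the coding span with 1 kb on each side inside an H3K4me3 region; right, −log10 p of the strongest H3K27ac summit there, blank where there is none. The Hoxb1 row is at 0 or blank, and the MEF KI column has values only at Hoxb8 and Hoxb4.

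Hoxb13, the member used last and farthest towards the tail, had uneven marking. Its H3K4me3 region was 267 bp wide in MEF WT, 452 bp in MEF SG, 774 bp in wound-healing WT, 1476 bp in wound-healing SG and 3219 bp in MMTV-CAF SG, and was absent from MEF KI and MMTV-CAF WT. The fold enrichments were 2.25, 2.35, 3.09, 4.48 and 8.8 in that order of width. The 3 H3K27ac summits at Hoxb13, the strongest with a −log10 p of 35.5, all came from MMTV-CAF SG. Hoxb13 was thus clearly marked in MMTV-CAF SG and faintly in 4 libraries.

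Hoxb9, Hoxb8, Hoxb7 and Hoxb6, the genes of the trunk, were steadily marked, as was Hoxb2. Hoxb7 and Hoxb6 had H3K4me3 at a start site in all 7 libraries, and Hoxb9 and Hoxb8 in all but MEF KI. Hoxb9 regions were 2510 bp in MEF WT, 2106 bp in MEF SG, 3294 bp in MMTV-CAF WT, 4640 bp in MMTV-CAF SG, 2985 bp in wound-healing WT and 5721 bp in wound-healing SG. A single region covered Hoxb8 and Hoxb7 in each of these libraries. It was 5641 bp wide in MEF WT, 5664 bp in MEF SG, 5954 bp in MMTV-CAF WT, 6293 bp in MMTV-CAF SG, 5174 bp in wound-healing WT and 6460 bp in wound-healing SG. This Hoxb8 and Hoxb7 region had the most even width of those described here.

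Under it, near the Hoxb7 start codon, lay one of the strongest H3K27ac sites of the cluster, with summits between 96148195 and 96148294. Its −log10 p was 68.4 in MEF WT, 107 in MEF SG, 82.3 in MMTV-CAF WT, 83.3 in MMTV-CAF SG, 40.4 in wound-healing WT and 67 in wound-healing SG. MEF KI had neither a summit nor H3K4me3 at that site, and its region near a Hoxb7 start site, 703 bp wide with a fold of 2.92, ended before it, at 96146349. The site was thus present in 6 libraries and missing from 1.

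Hoxb6 lay in regions of very different width. The region at its first start site was 3008 bp in MEF KI, 4431 bp in MEF WT, 4340 bp in MEF SG, 12357 bp in MMTV-CAF WT, 5283 bp in MMTV-CAF SG, 5755 bp in wound-healing WT and 26036 bp in wound-healing SG. The MEF KI region was the widest of the 4 in that library. In MMTV-CAF WT 1 region joined Hoxb6 and Hoxb5, and in wound-healing SG 1 region ran from 96151760, upstream of Hoxb6, to 96177795, just before the annotated start of Hoxb4. The latter was the third widest of all 19641 regions of its list (rank 3), while the widest region of the cluster ranked 47 to 1085 in the other 6 libraries. In wound-healing WT the same stretch held separate regions, which shows as a row of smaller bars on the map.

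Hoxb5, Hoxb4 and Hoxb3, the genes of the middle, differed in where the mark sat. Hoxb5 had H3K4me3 at its start site in both MMTV-CAF and both wound-healing libraries and in none of MEF. The share of its start-site window covered was 100% in MMTV-CAF WT, 41.1% in MMTV-CAF SG, 20.2% in wound-healing WT and 100% in wound-healing SG. In MEF WT a region of 1516 bp with a fold of 2.39 began past its start codon.

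Hoxb4 showed the mark over the coding part rather than at the annotated start site, which lies 2086 bp upstream of the start codon. Its coding span with 1 kb on each side was covered by 8.46% in MEF KI, 84.4% in MEF WT, 77.8% in MEF SG, 98.2% in MMTV-CAF WT, 91.3% in MMTV-CAF SG, 77.1% in wound-healing WT and 91.4% in wound-healing SG. At the start site only MMTV-CAF WT and wound-healing SG had a region. For Hoxb3 the coding span with 1 kb on each side held H3K4me3 in 1 library (MMTV-CAF SG, 5.86%), in the upstream flank only. Its region, 2039 to 3122 bp wide in 6 libraries, lay upstream of the coding part, between 96201684 and 96204805, next to the start of the noncoding transcript Gm11536. An H3K27ac site there, between 96202933 and 96203372, had a −log10 p of 52.1 in MEF WT, 100 in MEF SG, 67.7 in MMTV-CAF WT, 84.7 in MMTV-CAF SG, 50.3 in wound-healing WT and 51.4 in wound-healing SG.

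Hoxb2, a gene of the hindbrain in the embryo, was the last marked member. Its region measured 4126 bp in MEF WT, 4063 bp in MEF SG, 4684 bp in MMTV-CAF WT, 8440 bp in MMTV-CAF SG, 3288 bp in wound-healing WT and 5942 bp in wound-healing SG, and was absent from MEF KI. Its strongest H3K27ac summit had a −log10 p of 95.3 in MEF WT, 116 in MEF SG, 74.3 in MMTV-CAF WT, 91.6 in MMTV-CAF SG, 36.8 in wound-healing WT and 61.5 in wound-healing SG. In MEF WT, MEF SG and MMTV-CAF SG this was the strongest summit of the whole cluster. Hoxb1, which patterns a single segment of the hindbrain, had no H3K4me3 region and no H3K27ac summit over its coding span in any of 7 libraries. It was the one member with neither mark throughout.

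Among the other genes of the span, Gm53 was marked by both histone marks at its start in the 6 libraries other than MEF KI. The Gm11536 start was too. The start of Hoxb3os, antisense to Hoxb3, had H3K4me3 within 1 kb in those 6 and H3K27ac in wound-healing WT only. H3K4me3 reached to within 1 kb of the Mir10a start in the same 6 libraries, from the neighbouring Hoxb4 regions, and overlapped the annotated hairpin in none. H3K27ac lay within 1 kb of that start in wound-healing SG only, as a summit inside the hairpin. 0610040B09Rik, a transcript on the − strand, had H3K4me3 within 1 kb of its outermost start in MEF WT and wound-healing SG and H3K27ac there in wound-healing WT, while H3K4me3 overlapped its body, which spans Hoxb6 and Hoxb5, in all 7 libraries. Mir196a-1, Gm11538 and Gm11539 had neither mark within 1 kb in any of 7 libraries. Beyond the span, the start of Ttll6, the nearest coding gene on the Hoxb13 side, had both marks within 1 kb in MMTV-CAF SG only, and that of Skap1 had neither in any library. These values do not use strand, so antisense pairs cannot be told apart.

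H3K27ac summits were many times denser in the cluster than over the genome in all libraries but MEF KI. There was 1 in MEF KI, while MEF WT had 25 and MEF SG 21. There were 31 in MMTV-CAF WT, 35 in MMTV-CAF SG, 43 in wound-healing WT and 27 in wound-healing SG. At the mean density of each list the span would hold 1.99 (MEF KI) to 4.19 (MMTV-CAF SG). Wound-healing WT had the most summits though its list was the shortest of the 3 WT lists. Most summits lay inside an H3K4me3 region: 80% (20 of 25) in MEF WT, 66.7% (14 of 21) in MEF SG, 83.9% (26 of 31) in MMTV-CAF WT, 77.1% (27 of 35) in MMTV-CAF SG, 72.1% (31 of 43) in wound-healing WT and 81.5% (22 of 27) in wound-healing SG. Over all summits of the lists the share was 38.6% to 54.1%, and it lay below the interval of the cluster in each of these 6 libraries. The lowest bound was 45.4%, in MEF SG, against 38.6%. Neighbouring summits of 1 locus are not independent, and H3K4me3 covered far more of the cluster than of the genome. The comparison of shares is therefore descriptive only.

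Joined across libraries within 500 bp, the summits made 62 sites. Of these, 9 were in all 6 libraries other than MEF KI, 2 were in 5, 9 in 4, 9 in 3, 14 in 2 and 19 in 1, and none was in all 7. The 9 recurrent sites were at Gm53 (2), Hoxb7 (1), both Hoxb6 start sites (2), between Hoxb5 and Hoxb4 (1), in the Hoxb4 coding part (1), inside Hoxb3 (1) and at Gm11536 (1). The site between Hoxb5 and Hoxb4, from 96172507 to 96173334, had a −log10 p of 21.6 to 52.6, and the Hoxb4 site, from 96180574 to 96181492, one of 18.2 to 53.1. The strongest summit of the cluster fell at Hoxb2 in 3 libraries, at Hoxb7 in MMTV-CAF WT and wound-healing SG, and at Gm53 in wound-healing WT. It stood at percentiles 94.3 to 99.5 of its list by −log10 p.

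Stitched at the usual distance of super-enhancer calling and ranked by summed −log10 p, which approximates a ranking by reads, the HoxB summits formed one of the leading clusters of their lists. The rank was 11 of 18313 in MEF WT, 147 of 17687 in MEF SG, 25 of 18506 in MMTV-CAF WT, 38 of 19061 in MMTV-CAF SG, 2 of 13901 in wound-healing WT and 6 of 18052 in wound-healing SG. It was 12861 of 13518 in MEF KI. With stitching within 5 kb the ranks were 144 in MEF WT, 397 in MEF SG, 515 in wound-healing SG and 70 in MMTV-CAF WT, against 3 for the wound WT list and 33 for MMTV-CAF SG. In MMTV-CAF WT and wound-healing WT a single stitched cluster ran from Gm53 to Hoxb2. At the usual distance HoxA and HoxC often ranked high as well. In the order of the first HoxB ranks above, HoxA stood at 1, 2, 39, 70, 17 and 37, and HoxC at 100, 32, 14, 22, 4 and 886. HoxD stood at 693 to 10537 there. In MEF KI the ranks were 6 for HoxA, 13445 for HoxC and 15 for HoxD. A leading rank was thus not particular to HoxB.

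MEF KI and MEF SG were each set against MEF WT, 2 ways of removing Prrx1 function in 1 cell type, and they differed from each other throughout the cluster. Of the 25 WT summits, 0 were matched within 500 bp by a MEF KI summit (interval 0 to 13.3%), while 14 were matched in MEF SG (56%, 37.1 to 73.3%). Over the whole WT list 44.3% were matched by MEF KI and 68.2% by MEF SG, so 55.7% and 31.8% were absent. Of the WT summits with a −log10 p of at least 30, 0 of 13 in the cluster and 80.3% of all were matched by MEF KI. The same counts for MEF SG were 10 of 13 and 89.2%. Few WT summits of the other clusters were matched either: 0 of 8 of HoxC, 0 of 9 of HoxD and 6 of 31 of HoxA by MEF KI. HoxC held 1 MEF KI summit, but HoxA held 29 and HoxD 13, so there the lack of a match was not a lack of the mark. Both comparisons share the MEF WT list.

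**Figure D3:**
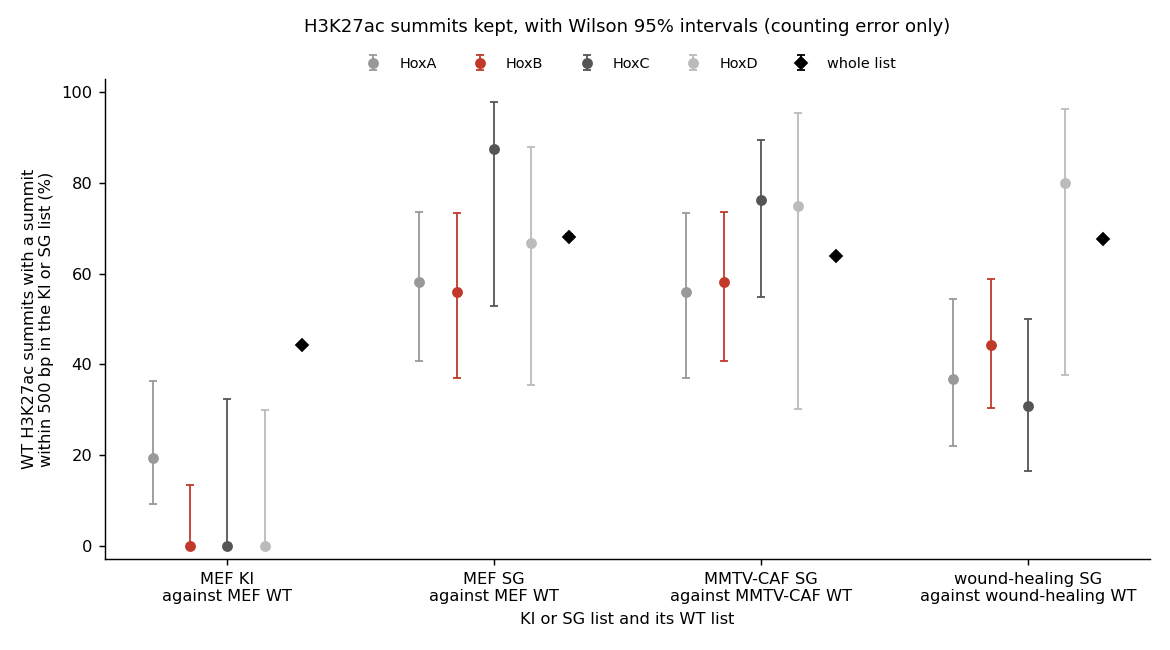
Percent of WT H3K27ac summits with a summit within 500 bp in the KI or SG list (y axis) for 4 pairs of lists (x axis); points are the 4 Hox clusters and diamonds the whole list, bars are Wilson 95% intervals. HoxB is at 0 in MEF KI and between 44.2 and 58.1% in the 3 SG lists, with the whole lists at 44.3 to 68.2%.

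At start sites, 5 of the 7 members with H3K4me3 in MEF WT had none in MEF KI: Hoxb13, Hoxb9, Hoxb8, Hoxb3 and Hoxb2. Among all coding genes marked in MEF WT 10.1% had none in MEF KI. No member was marked in MEF KI alone, against 0.837% of the unmarked coding genes. In MEF SG no member differed in H3K4me3 in either direction, with backgrounds of 3.45% and 0.817%. With windows of 2.5 kb, or at the start codon, Hoxb5 was marked in MEF WT and not in MEF SG. H3K27ac at a start site was absent from MEF KI for 3 of the 4 members that had it in MEF WT (Hoxb9, Hoxb3 and Hoxb2), where 23.4% of all coding genes with it in WT had none, and no member had it in MEF KI alone, against 1.39%. In MEF SG it was absent at Hoxb3 and present at Hoxb8 in SG alone, with backgrounds of 1.97% and 5.24%. Of the bases under H3K4me3 in MEF WT, 11.9% of those in HoxB and 65.4% of those in the genome were also covered in MEF KI, and 80.4% and 84.8% in MEF SG.

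The 4 regions of MEF KI lay inside WT regions of the Hoxb8 and Hoxb7 stretch, of Hoxb6, of the site between Hoxb5 and Hoxb4, and of the Hoxb4 coding part. Their widths were 703, 3008, 591 and 301 bp and their folds 2.92, 3.15, 2.7 and 3.19. The single H3K27ac summit, at 96153330, had a −log10 p of 6.87 and stood at percentile 8.72 of its list. With only intervals of −log10 p at least 10 the cluster held no H3K4me3 and no H3K27ac in MEF KI. No region or summit of MEF KI in the cluster was strong.

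The other Hox clusters of the same lists did not share one direction. HoxA had H3K4me3 over 34% of its span in MEF KI, with 46.6% in WT and 41.4% in SG. HoxC had 0% in MEF KI, with 29.1% in WT and 25.3% in SG, and HoxD had 22.1%, with 11.7% and 9.2%. Start sites with H3K4me3 in MEF WT and MEF KI numbered 11 and 9 of 11 in HoxA, 8 and 0 of 9 in HoxC, and 5 and 7 of 9 in HoxD. The HoxD start sites marked in MEF KI and not in MEF WT were Hoxd13, Hoxd12 and Hoxd11, genes of the distal limb and tail in the embryo. H3K27ac summits numbered 31 and 29 in HoxA, 8 and 1 in HoxC, and 9 and 13 in HoxD. HoxB and HoxC were thus nearly bare in MEF KI while HoxA and HoxD were marked.

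**Figure D4:**
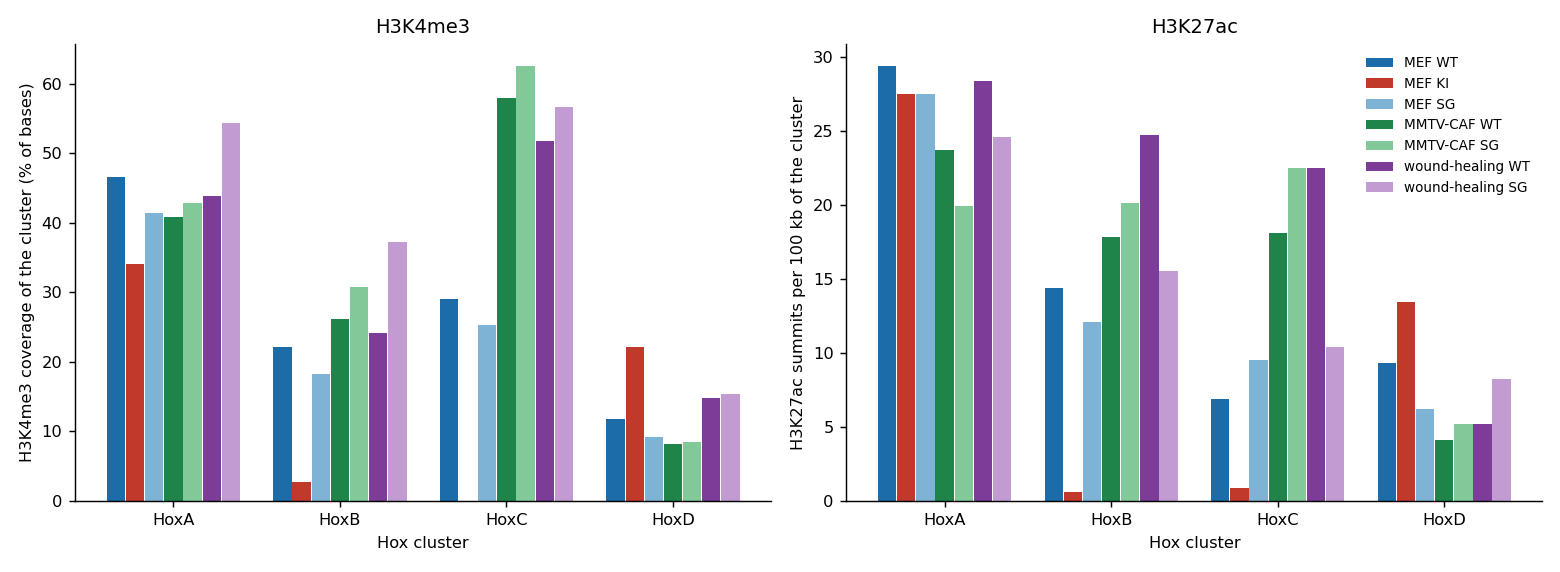
H3K4me3 coverage (left, percent of bases) and H3K27ac summits per 100 kb (right) of the 4 Hox clusters (x axis) in the 7 libraries (bars, 1 list each, so no error bar). The MEF KI bars are near 0 at HoxB and HoxC and at 34 and 22.1% coverage at HoxA and HoxD.

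**Figure D5:**
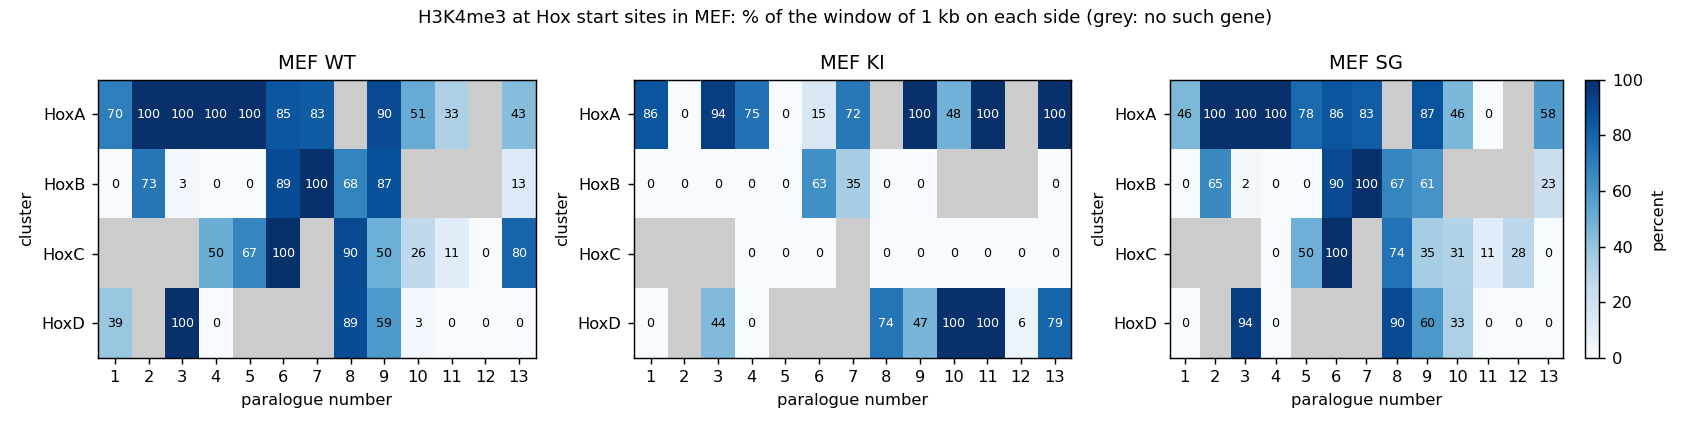
Percent of the window of 1 kb on each side of a Hox start site inside an H3K4me3 region, for the 3 MEF libraries, by cluster (rows) and paralogue number (columns); grey cells are genes that the annotation does not list. In MEF KI the HoxB row has values at Hoxb6 (62.9%) and Hoxb7 (35.1%), the HoxC row is at 0, and Hoxa11, Hoxa13, Hoxd10 and Hoxd11 are at 100%.

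By paralogue number, the windows of Hoxa11 were covered by 32.7% in MEF WT and 100% in MEF KI, those of Hoxa13 by 43.3% and 100%, those of Hoxd10 by 3% and 100%, and those of Hoxd13 by 0% and 79.3%. Other high-numbered genes did not rise. Hoxb13, of the same end of its cluster, went from 13.3% to 0%, Hoxc13 from 79.7% to 0%, Hoxc11 from 11.4% to 0% and Hoxc10 from 26.2% to 0%. Hoxa10 had 50.9% and 48.4%. MEF WT and MEF KI came from different embryos, so genotype, strain background, embryo, body region of the culture and list cannot be told apart here. Whether the lower strength of the MEF KI lists has a part in the HoxB values was not tested. With all H3K27ac lists cut to the same length, 0 of 17 WT summits of the cluster and 58.4% of all were matched by MEF KI.

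In MMTV-CAF, 18 of 31 WT summits (58.1%, 40.8 to 73.6%) had a summit within 500 bp in SG, where 63.9% of all did and 36.1% did not. H3K4me3 in SG covered 87.1% of the WT-marked bases of the cluster, against 79.8% over the genome. At start sites Hoxb4 was marked in WT alone, with a background of 2.76%, and Hoxb13 in SG alone, with a background of 4.33%. With windows of 2.5 kb or at the start codon Hoxb4 was marked in both lists, and Hoxb13 still in SG alone. At the start codon Hoxb3 was marked in SG alone as well. H3K27ac at a start site was in WT alone at Hoxb2, whose SG summit lay 1524 bp past the start site, and in SG alone at Hoxb13, Hoxb8 and Hoxb3. Over all coding genes, 2.75% of those with H3K27ac at a start site in WT had none in SG, and 6.78% of those without it in WT had it in SG. Among the members, Hoxb13 had the largest difference between the lists in coverage of the start-site window, 80.4% in SG against 0% in WT. In the other clusters this coverage was also higher in SG at Hoxc11 (77.6% against 18.4%), Hoxc12 (100% against 44.5%), Hoxa13 (12.6% against 0%) and Hoxa11 (8.65% against 0%). It was lower at Hoxa10 (65.3% against 78.2%), and Hoxd13 had 0% in both.

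In wound-healing fibroblasts, 19 of 43 WT summits (44.2%, 30.4 to 58.9%) had a summit in SG, where 67.7% of all did and 32.3% did not. Summits were fewer in SG (27 against 43) and their median −log10 p was 28.8 against 14.4. H3K4me3 of SG covered 97.1% of the WT-marked bases in HoxB and 93.1% over the genome, and reached 23853 bases of the span that WT did not. No member was marked in WT alone, with a background of 2.09%, and Hoxb4 and Hoxb3 were marked in SG alone, with a background of 3.36%. That difference rests on the window, since with windows of 2.5 kb both lists had 9 marked members and at the start codon both had 8. H3K27ac at a start site was in SG alone at Hoxb4 and in WT alone at no member, with backgrounds of 6.62% and 3.07%. In SG the cluster thus had more H3K4me3 and fewer, stronger summits than in WT, in 1 list each. Of the WT summits with a −log10 p of at least 30, 6 of 9 had one in SG, against 84.7% of all, and in MMTV-CAF the same counts were 7 of 10 and 87.5%. In the wound lists HoxA and HoxC also had more H3K4me3 and fewer summits in SG. HoxA went from 43.9% to 54.4% coverage and from 30 to 26 summits, and HoxC from 51.7% to 56.6% and from 26 to 12. HoxD went from 14.8% to 15.3% and from 5 to 8 summits. WT summits were matched in SG for 36.7% in HoxA, 30.8% in HoxC and 80% in HoxD. H3K4me3 covered 1.16% of the genome in WT and 1.42% in SG.

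Among the WT libraries, H3K4me3 at a start site differed by cell type at 4 of 10 members, Hoxb13, Hoxb5, Hoxb4 and Hoxb3, where 7.9% of all coding genes differed. With windows of 2.5 kb, or at the start codon, it differed at Hoxb13 alone. H3K27ac at a start site also differed at 4 of 10, Hoxb8, Hoxb7, Hoxb5 and Hoxb3, against 7.52% of all coding genes. Hoxb9 to Hoxb6 and Hoxb2 had H3K4me3 at a start site in all 3. HoxB coverage ranged from 22.2% (MEF) to 26.1% (MMTV-CAF), HoxA coverage from 40.9% (MMTV-CAF) to 46.6% (MEF), and HoxC coverage from 29.1% (MEF) to 58% (MMTV-CAF).

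Prrx1 summits in the cluster came from 1 list of 3. There were 3 in wound-healing WT and none in the others, where the mean density of the lists would put 0.387 in the first, 0.207 in MEF WT and 0.544 in MMTV-CAF WT. None lay in the flanks of 50 kb. No member had a Prrx1 summit within 1 kb of a start site in any list, where the share of coding genes with one was 0.559% (MEF WT), 7.3% (MMTV-CAF WT) and 5.96% (wound-healing WT). A count of 0 of 10 is near these backgrounds.

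The strongest, at 96117467 in Gm53, had a −log10 p of 8.31 (rank 1207 of 5698) and lay in the H3K4me3 region of 6904 bp that opens the marked part of the cluster. The second, at 96121823 in Gm53, had a −log10 p of 6.32 (rank 2430), lay outside H3K4me3 and was 253 bp from an H3K27ac summit. The last, at 96180088, 2.09 kb past the annotated Hoxb4 start site, also had a −log10 p of 6.32 and lay in an H3K4me3 region. The windows of 100 bp on each side of the summits in Gm53 held 6 and 3 TAAT words on the 2 strands and 1 TAATTA each. Over all Prrx1 summits of that list 82.9% of windows held TAAT and 41.9% held TAATTA, so the words do not set these summits apart. The MEF WT list had no Prrx1 summit in any Hox cluster. In MMTV-CAF WT there were 5 in HoxA and 8 in HoxC, and wound-healing WT had 6 and 7, with none in HoxD.

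H3K4me3 lay at a start site of 9 of 9 Hox cofactors (the Pbx, Meis and Pknox genes) and 12 of 12 chromatin regulators of Hox clusters (Polycomb subunits such as Ezh2 and trithorax group members such as Kmt2a) in each of the 7 libraries, MEF KI included. H3K27ac lay at a start site of 6 cofactors in MEF KI, 7 in wound-healing SG and 8 or 9 in the others, and of 8 regulators in MEF KI and 11 or 12 in the others. Retinoic acid induces the low-numbered Hox genes in the embryo, and of 7 genes of its pathway 3 to 6 were marked. Cyp26c1, which breaks down retinoic acid, was unmarked in all 7, and Aldh1a2, which makes it, was marked in MMTV-CAF WT alone.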

How the data were processed

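ChIP-seq of H3K27ac, H3K4me3 and Prrx1 in immortalised mouse fibroblasts was used as deposited peak lists, 17 in all, with 1 list per group; the 7 inputs were not analysed here. Per the methods and the submitters' processing notes, the authors trimmed reads (Trimmomatic), aligned them to mm9 (Bowtie), removed duplicates and called peaks against input with MACS2. The deposited H3K27ac and Prrx1 files give summits of 1 bp with −log10 p. The deposited H3K4me3 files give broad regions with fold (ratio), −log10 p and −log10 q. Prrx1 lists reach a −log10 p of 3.00, and whether they pool the repeat ChIPs is not given in the sources used here.

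Members, gene lists and measures were chosen with earlier results of these data known. All 10 members are named, with the genes inside the span, the flanking coding genes, other Hox genes by cluster and likeness, and gene lists by count. Positions are 1-based in mm9 with GENCODE vM1. Coverage, windows of 1 kb, summits kept within 500 bp and summits stitched within 12.5 kb were computed in Python 3.11.15 with pandas 2.3.3, and scipy 1.17.1 for intervals, and the measures were tested on simulated intervals. With 1 list per group no test was made within a fibroblast type, and over the 3 pairs of WT and SG lists an exact sign-flip permutation test with the type as a block was added after seeing the data. Alternatives were a −log10 p of at least 10 (Prrx1, 5), lists of equal length, the cluster without Hoxb13, other windows and joining distances, and, chosen after seeing the data, WT summits with a −log10 p of at least 30. Read depth is unknown from the lists, so precision is limited to counting intervals. Some sequences of the cluster are not reported here.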

Additional observations from a re-analysis of the deposited data

Results flagged for a closer look

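The SG lists differed from their WT lists in opposite directions among the fibroblast types, and the difference between types was not tested. For H3K4me3 coverage of the HoxB cluster, SG minus WT was -3.87 percentage points for MEF, 4.56 points for MMTV-CAF and 13 points for the wound. It had the same signs in HoxA (-5.18, 2.01 and 10.5 points in that order), HoxC (-3.79, 4.59 and 4.91) and HoxD (-2.52, 0.333 and 0.457). Genome coverage was 1.19% in WT and 1.05% in SG for MEF, 1.96% and 2.01% for MMTV-CAF, and 1.16% and 1.42% for the wound. The signs were thus not particular to HoxB. For the number of H3K27ac summits in the HoxB cluster, SG minus WT was -4 for MEF, 4 for MMTV-CAF and -16 for the wound. The summit differences of MEF and MMTV-CAF depended on the setting. For MMTV-CAF, SG minus WT was -2 from Hoxb9 to Hoxb1 (24 against 26 summits) and 0 with lists of equal length (21 in each). For MEF it was 0 with a −log10 p of at least 10 (17 in each). For the wound, coverage was higher and summits were fewer in SG under each of these settings.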

How the results depend on the processing

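Of 107 values under alternatives, 80 stayed within a counting interval (coverage, over bins of 200 bp) or within 1.5 times the count, and 27 moved. The difference in summits between the MMTV-CAF lists turned from 4 more in SG to 2 fewer (-2) without the Hoxb13 end. Intervals with a −log10 p of at least 10 left coverage of 0% in MEF KI, 18.7%, 22% and 19.1% in the WT lists of MEF, MMTV-CAF and wound and 33.9% in wound-healing SG, and 0 marked members and 0 summits in MEF KI. Lists of equal length gave 21% coverage in wound-healing WT, and 13 summits for MEF SG and 21 for MMTV-CAF SG. Without the Hoxb13 end coverage was 4.76% for MEF KI, 33.8%, 39.4% and 34.7% for the WT lists of MEF, MMTV-CAF and wound, and 27.6%, 41.5% and 53.8% for their SG lists, since the denominator drops the unmarked stretch, and 1 Prrx1 summit was left in wound-healing WT. Stitching within 5 kb gave ranks 144 (MEF WT), 397 (MEF SG), 70 (MMTV-CAF WT) and 515 (wound-healing SG). Marked members in MEF KI were 1 with windows at the start codon and 4 with windows of 2.5 kb. Summits within 1 kb kept 74.2% in MMTV-CAF SG. WT summits with a −log10 p of at least 30, chosen after seeing the data, were matched for 76.9% by MEF SG and for 66.7% by wound-healing SG. The order with MEF KI lowest in coverage, members and summits held in each alternative run. The lists hold no read counts, so what depth limits is unknown, and a missing interval is not a measure of 0. With the fibroblast type as a block, added after seeing the data, SG minus WT over 3 pairs averaged 4.57 ± 8.45 percentage points of coverage (SD, n = 3, exact two-sided sign-flip permutation p = 0.5), -5.33 ± 10.1 summits (exact p = 0.75) and 0.667 ± 1.15 marked members (exact p = 1), where 0.25 is the smallest p that 3 pairs allow.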

Other observations

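Likeness between Hox genes was measured as the mean absolute difference, over the 7 libraries, in the percent of the start-site window covered by H3K4me3, against the 29 Hox genes of the other clusters. Hoxb6 was closest to Hoxa7 (4.89 percentage points) and Hoxb7 to Hoxc6 (5.02), with Hoxa2 next (6.7). Hoxb9 was closest to Hoxc8 (9.35) and Hoxb2 to Hoxc5 (11.2). Hoxb1 matched Hoxd4 exactly (0), since neither was marked in any library. Hoxb5 had no close match, with Hoxc4 nearest at 27.4. The libraries share antibodies and peak settings, and the measure rests on annotated start sites, which at Hoxb4 and Hoxb7 lie upstream of the coding part.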
